A study of Homo sapiens with 6 samples.

Results

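The smooth muscle contractile genes followed here are ACTA2, ACTG2, CNN1, CNN2, TAGLN, MYL9, CALD1, TPM1, TPM2 and MYLK. They are 10 of the 29123 gene names on the array. The list was made with earlier results of these data known, and all 22 probes of these names were kept. In smooth muscle, calcium-bound calmodulin activates the kinase encoded by MYLK, which phosphorylates the myosin regulatory light chain MYL9 and so lets myosin pull on filaments of the actins ACTA2 and ACTG2. The tropomyosins TPM1 and TPM2 lie along these filaments, caldesmon (CALD1) and the calponins (CNN1, CNN2) bind actin and restrain the motor, and transgelin (TAGLN) is an actin-binding protein of the calponin family. Myofibroblasts and some carcinoma cells also express several of these genes, and CNN2, CALD1, TPM1, TPM2 and MYLK have forms that non-muscle cells use. Many of them are transcribed through serum response factor (SRF) and its partners of the myocardin family, which act at a DNA element called the CArG box.

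The study altered Hic-5 (gene symbol TGFB1I1), a focal adhesion adaptor protein of the paxillin family, in 2 established human ovarian cancer lines. In SKOV3, RNA of sh-S1 and of sh-S2, clones labelled as Hic-5 knockdown and made with lentiviral pLKO.1-puro vectors and puromycin, was hybridized against RNA of a Ctrl clone carrying the same vector with a scramble sequence. In A2780s, RNA of pCMV-Hic-5, a neomycin-selected clone with Myc-DDK-tagged Hic-5 behind a cytomegalovirus promoter, was hybridized against RNA of a Ctrl clone with the empty vector. Each pair of RNAs was measured on 2 dual-colour Agilent Whole Human Genome arrays with the dyes Cy3 and Cy5 exchanged, which makes 6 arrays. Each modified RNA comes from 1 clone, so an effect of Hic-5 and a property of the clone cannot be told apart. The dye-swapped arrays of a clone count as 1 replicate, which gives n = 2 clones in SKOV3 against 1 shared Ctrl RNA, and 1 clone in A2780s. Each cell line also has a slide of its own, and an effect of the slide cannot be told apart from one of the line.

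The RNA of the targeted gene was not lower in the clones labelled as knockdown in SKOV3. The log2 ratio of TGFB1I1 to the Ctrl was -0.16 and 0.12 in sh-S1 and -0.12 and 0.28 in sh-S2, with the clone in Cy5 first. In pCMV-Hic-5 it was 4.05 and 2.60. The SKOV3 results below are therefore given for RNAs as labelled, sh-S1 and sh-S2, and their directions rest on those labels. The arrays read RNA, and Hic-5 protein is not measured on them. On the SKOV3 arrays the median signal over local background was 373 to 530.5 in Cy3 but 9.52 to 25.5 in Cy5, and this dim channel, with the number of arrays, limits the precision. None of the spots of the 10 genes was saturated or left out. As a check of tissue identity, MYH11, the smooth muscle myosin heavy chain, was not well above background in sh-S1, sh-S2, pCMV-Hic-5 or the A2780s Ctrl on any array by either of its probes, and in the SKOV3 Ctrl it was so on 1 of 4 arrays by one probe and 2 of 4 by the other. This defining marker of differentiated smooth muscle was thus absent or near background in all 5 RNAs. Other smooth muscle markers were seen more often. Of a list of 7 that includes MYH11, 6 stood well above background on all arrays in each A2780s RNA, and 3 to 4 did in the SKOV3 RNAs. Of all spots that are not controls, 74.3% to 88.0% were well above background in the A2780s channels. On the SKOV3 arrays the share was 88.8% to 94.5% in Cy3 and 43.7% to 63.6% in Cy5. The marker counts are to be read beside these shares, which differ between the lines. MYOCD, which encodes the muscle-restricted SRF partner myocardin, stood well above background in each SKOV3 clone on 1 of 2 arrays, in the SKOV3 Ctrl on 3 of 4 and in A2780s on all. Because RNA came from whole cultures, fewer cells with a transcript and less transcript per cell cannot be told apart.

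Upstream sequence of the genes was searched for the CArG box, written as CC, then 6 bases that are each A or T, then GG. Its pattern is symmetric, so a match on one strand is a match on the other. RefSeq windows of 250 bases before an annotated start (GRCh38.p14) were given for 8 of the 10 genes, in 13 windows. An exact box was found in 3 of the 13 windows, 1 each of ACTG2, CNN2 and MYLK, while 1.16% of all 35116 windows hold one. The windows are shown for these 3 genes and for ACTA2 and CNN1, the actin and the calponin whose RNA rose furthest in SKOV3. Capitals mark exact boxes, except in ACTA2, where they mark boxes with 1 mismatch.
ACTG2, chr2:73892758-73893007 (+): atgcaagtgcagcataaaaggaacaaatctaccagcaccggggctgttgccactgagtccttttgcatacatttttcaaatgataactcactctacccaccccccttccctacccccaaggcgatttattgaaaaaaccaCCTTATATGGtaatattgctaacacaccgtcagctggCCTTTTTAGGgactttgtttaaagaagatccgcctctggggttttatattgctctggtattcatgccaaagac
MYLK, chr3:123620549-123620798 (-): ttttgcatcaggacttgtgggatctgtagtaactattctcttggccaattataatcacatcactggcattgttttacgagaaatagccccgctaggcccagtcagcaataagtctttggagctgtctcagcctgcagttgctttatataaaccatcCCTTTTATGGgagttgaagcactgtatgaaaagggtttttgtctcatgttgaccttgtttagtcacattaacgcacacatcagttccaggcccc
CNN2, chr19:1026358-1026607 (+): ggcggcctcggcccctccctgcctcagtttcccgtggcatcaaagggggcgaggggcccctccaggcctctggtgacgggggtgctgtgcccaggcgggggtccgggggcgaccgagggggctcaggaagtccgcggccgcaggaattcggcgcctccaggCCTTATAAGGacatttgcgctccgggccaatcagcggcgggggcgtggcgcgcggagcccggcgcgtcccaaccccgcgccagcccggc
ACTA2, chr10:88952774-88953023 (-): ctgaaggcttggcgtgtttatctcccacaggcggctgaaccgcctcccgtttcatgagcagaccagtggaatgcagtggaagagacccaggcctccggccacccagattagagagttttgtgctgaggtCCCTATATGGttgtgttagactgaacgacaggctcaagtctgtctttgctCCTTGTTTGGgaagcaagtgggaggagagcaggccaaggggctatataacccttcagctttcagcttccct
CNN1, chr19:11538601-11538850 (+): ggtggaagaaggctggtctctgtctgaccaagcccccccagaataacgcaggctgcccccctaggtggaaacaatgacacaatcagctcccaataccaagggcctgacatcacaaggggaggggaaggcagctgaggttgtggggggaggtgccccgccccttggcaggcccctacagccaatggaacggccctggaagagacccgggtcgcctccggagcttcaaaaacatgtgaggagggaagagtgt
The boxes of ACTG2 began 110 and 73 bases before the start, that of MYLK 94 and that of CNN2 89 bases before it. In ACTA2 the boxes with 1 mismatch, CCCTATATGG and CCTTGTTTGG, began 121 and 71 bases before the start. Windows with an exact box or 1 with a single mismatch make up 16.8% of all windows and are 6 of these 13, the others being 1 of 2 for ACTA2 and 2 of 4 for CALD1. The CNN1 window holds neither form, which says only that these letters are not in this stretch. A match describes sequence and was not tested for function. The genes with an exact box did not share a direction in the SKOV3 results that follow, where a MYLK probe fell, both CNN2 probes stayed short of 2-fold and ACTG2 was too dim to test.

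Most probes lie in one stretch of genome, but 3 of the 22 join stretches that are apart in the genome (hg19, from the array's own coordinates), so they read spliced RNA. They are shown because each stands beside another probe of its gene with a different value.
TPM1 A_24_P44462, chr15:63353441-63354441 (+): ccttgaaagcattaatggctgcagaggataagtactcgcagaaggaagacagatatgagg
TPM2 A_23_P20566, chr9:35684492-35685064 (-): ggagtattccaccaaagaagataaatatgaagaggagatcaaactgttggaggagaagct
TAGLN A_23_P87013, chr11:117074574-117074963 (+): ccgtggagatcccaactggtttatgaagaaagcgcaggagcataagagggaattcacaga

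In SKOV3, genes of this set moved in both directions between the Ctrl and the RNAs labelled as the sh clones. CNN1, ACTA2 and MYL9 rose furthest, by 10.5-fold, 5.78-fold and 3.79-fold, followed by TPM2 and CALD1 at just over 2-fold on 1 probe each. TPM1 fell on 4 of its 6 probes, by up to 5.00-fold, and MYLK fell by 2.68-fold on 1 of 2 probes. Were the labels of clone and Ctrl turned, each direction would turn with them, and TPM1 A_24_P924721 would be the largest rise and CNN1 the largest fall. TAGLN and CNN2 did not reach the thresholds. A probe was called when limma's Benjamini-Hochberg adjusted p over all 24956 probes tested was at most 0.05 and the change at least 2-fold. Of the 22 probes, 19 passed the filter on signal, and 5 were called higher where 2.98% of all tested probes were, and 5 lower where the background is 4.16%. The share among the tested probes of these genes was 26.3% in each direction. Because the genes were chosen with earlier results of these data known, these shares describe the list and do not test it. The 5 lower calls are of TPM1 and MYLK alone, and probes of 1 gene are not independent. For 18 of the 19, the clone and the Ctrl were both well above background on each array. The median log2 ratio of the 19 tested probes was 0.46, against 0.00 for all probes tested. The Ctrl is a single RNA whose own spread the test does not see, and a deviation of that RNA would enter both clones alike.

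**Figure D1:**
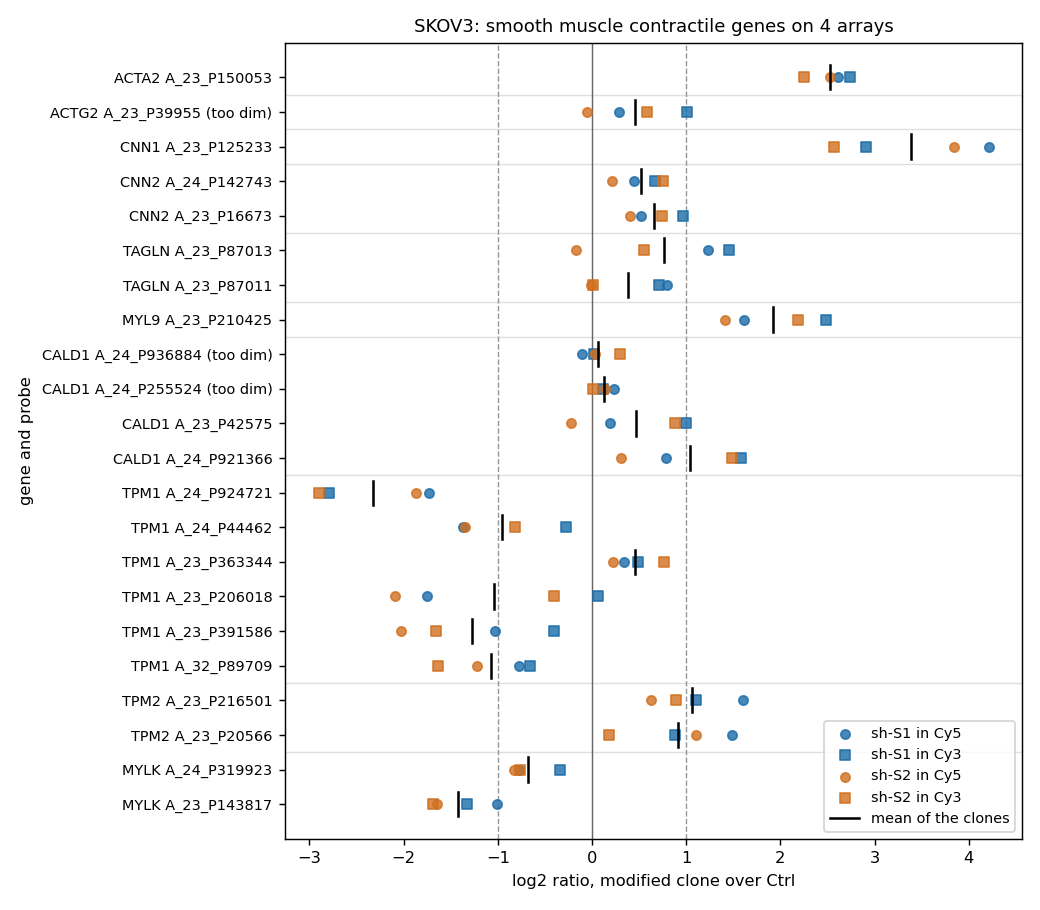
Log2 ratio of each probe of the 10 genes on the 4 SKOV3 arrays (horizontal axis), with colour for the clone, circles for the clone in Cy5, squares for the clone in Cy3, a black line at the mean of the clones and dashed lines at 2-fold. CNN1, ACTA2 and MYL9 stand above 1 on every array, TPM1 A_24_P924721 and MYLK A_23_P143817 below -1 on every array, and 3 probes marked as too dim were not tested.

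ACTA2 encodes the smooth muscle alpha actin, the main filament actin of contractile cells. Its probe, A_23_P150053 at chr10:90697899-90697958 (hg19), gave log2 ratios of 2.61 and 2.74 in sh-S1 and of 2.52 and 2.25 in sh-S2, the first value of each pair with the clone in Cy5. All 4 arrays were high and close to each other. The clones averaged 2.53 ± 0.20 (SD, n = 2 clones; standard error 0.11; limma's adjusted p = 1.35e-05). ACTG2, the gamma actin of enteric smooth muscle, had ratios of 0.29, 1.01, -0.05 and 0.59 on the same arrays. Its probe stood well above background in each clone on 1 of 2 arrays and in the Ctrl on 2 of 4, so it was not tested and its mean of 0.46 is given as a value only.

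CNN1, basic calponin, is among the genes most restricted to smooth muscle and inhibits the actomyosin ATPase. Its probe A_23_P125233, at chr19:11661005-11661064 (hg19), gave 4.21 and 2.91 in sh-S1 and 3.85 and 2.57 in sh-S2. Every array was far above 0, but the ratios with the clone in Cy5 were larger in both clones, with a mean of 4.03 against 2.74 with the clone in Cy3. The clones averaged 3.39 ± 0.25 (SD, n = 2 clones; standard error 0.12; limma's adjusted p = 6.06e-06). CNN2, the calponin of many non-muscle cells, changed far less. A_23_P16673 gave 0.52, 0.96, 0.41 and 0.75, and A_24_P142743 gave 0.44, 0.67, 0.22 and 0.76. Both probes were above 0 on all 4 arrays, with means of 0.66 (95% interval 0.43 to 0.89) and 0.52 (0.30 to 0.75) and adjusted p of 0.00279 and 0.00620, and both remained under 2-fold. CNN2 A_23_P16673 was called on Feature Extraction's processed signals, at a log2 ratio of 1.21, and with plain background subtraction, at 1.28.

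TAGLN, or SM22-alpha, differed between the clones. A_23_P87013 gave 1.23 and 1.45 in sh-S1 but -0.17 and 0.55 in sh-S2. A_23_P87011 gave 0.80 and 0.71 in sh-S1 but -0.01 and 0.01 in sh-S2. By both probes the arrays of sh-S1 lay above those of sh-S2, by 1.15 and 0.75 in the clone means, a difference that was not tested because each clone is 1 replicate. Neither probe passed, with adjusted p of 0.0534 and 0.156, and from the Cy3 orientation alone A_23_P87013 was called at 1.00. CALD1, caldesmon, has 4 probes. A_24_P921366, at chr7:134655197-134655256 (hg19), gave 0.78, 1.58, 0.30 and 1.49 and was called higher, at 1.04 ± 0.20 (SD, n = 2 clones, adjusted p = 0.000596). A_23_P42575 gave 0.20, 0.99, -0.22 and 0.89, with a mean of 0.46 that passed the adjusted p, 0.0161, but not the fold. In both, the arrays with the clone in Cy3 were the higher ones. The call on A_24_P921366 sits at the 2-fold limit and was lost with median centring in place of loess, at 0.84, and from the Cy5 orientation alone, at 0.54. There the mean of A_23_P42575 was -0.011. CALD1 A_24_P255524 and A_24_P936884 were too dim to test, with means of 0.13 and 0.06, and the latter was well above background in no channel of either line.

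MYL9, the regulatory light chain that MYLK phosphorylates, rose on its only probe. A_23_P210425, at chr20:35177541-35177600 (hg19), gave 1.61 and 2.48 in sh-S1 and 1.41 and 2.19 in sh-S2. The clones were alike and the arrays with the clone in Cy3 were higher. The mean was 1.92 ± 0.18 (SD, n = 2 clones; adjusted p = 3.72e-05). MYLK itself went the other way. Its probe A_23_P143817, at chr3:123333074-123333133 (hg19), gave -1.01 and -1.33 in sh-S1 and -1.65 and -1.69 in sh-S2, a mean of -1.42 ± 0.35 (SD, n = 2 clones; adjusted p = 0.000397). A_24_P319923 gave -0.78, -0.33, -0.83 and -0.77. That probe was below 0 on every array with a mean of -0.68 and an adjusted p of 0.00319, short of 2-fold, and it was called lower on processed signals at -2.21, with plain subtraction at -1.73 and with median centring at -1.09. It was well above background on 4 of 4 Ctrl channels and on only 1 of 2 arrays in each clone.

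The tropomyosins split by gene and, in TPM1, by probe. TPM2, beta tropomyosin, gave 1.61 and 1.10 in sh-S1 and 0.63 and 0.89 in sh-S2 on A_23_P216501, at chr9:35682088-35682147 (hg19). The spliced probe A_23_P20566 gave 1.49, 0.88, 1.10 and 0.18. Each array was above 0 by both probes, and sh-S1 was higher than sh-S2 in the mean by 0.59 and 0.54. The first was called, at 1.06 ± 0.42 (SD, n = 2 clones; adjusted p = 0.00219), and the second was not, at 0.91 with an adjusted p of 0.00326. The TPM2 call also lies at the 2-fold limit: A_23_P216501 came to 0.84 on processed signals, to 0.97 with plain subtraction and to 0.99 from the Cy3 orientation alone.

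TPM1, alpha tropomyosin, makes muscle and non-muscle forms through alternative starts, internal exons and last exons. Its 6 probes cover 23.2 kb of the gene on chromosome 15, and the array's files assign them to 3 different transcripts. The first, A_24_P924721 at chr15:63340846-63340905 (hg19), gave -1.73 and -2.79 in sh-S1 and -1.87 and -2.90 in sh-S2. Its mean of -2.32 ± 0.09 (SD, n = 2 clones; adjusted p = 1.18e-05) was the lowest of the 22 probes. The spliced probe A_24_P44462 gave -1.37, -0.28, -1.35 and -0.82, and its mean of -0.95 passed the adjusted p of 0.000797 but not the fold. It was called lower under median centring, on processed signals, with plain subtraction and from the Cy5 orientation alone.

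The third TPM1 probe ran the other way. A_23_P363344, at chr15:63358234-63358293 (hg19) and assigned to the same transcript as A_24_P44462, gave 0.34, 0.49, 0.22 and 0.76. Its mean of 0.45 (95% interval 0.23 to 0.68; adjusted p = 0.0111) stayed under 2-fold, and on each of the 4 arrays it lay above every other TPM1 probe. The interval for A_24_P44462, -1.20 to -0.70, does not reach it. The last 3 probes lie within 732 bases of each other and are assigned to 1 transcript. A_23_P206018 gave -1.75, 0.06, -2.09 and -0.40, with a mean of -1.05 (adjusted p = 0.000962). A_23_P391586 gave -1.03, -0.40, -2.03 and -1.65, with a mean of -1.28 (adjusted p = 0.00720). A_32_P89709, which overlaps the previous probe by 9 bases, gave -0.78, -0.65, -1.23 and -1.64, with a mean of -1.07 (adjusted p = 0.00339). All 3 were called lower. For A_23_P206018 the fall came from the arrays with the clone in Cy5, where the mean was -1.92, against -0.17 with the clone in Cy3, and the call was lost on the latter alone. For A_23_P391586 and A_32_P89709 sh-S2 was lower than sh-S1, by 1.13 and 0.71 in the means.

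**Figure D2:**
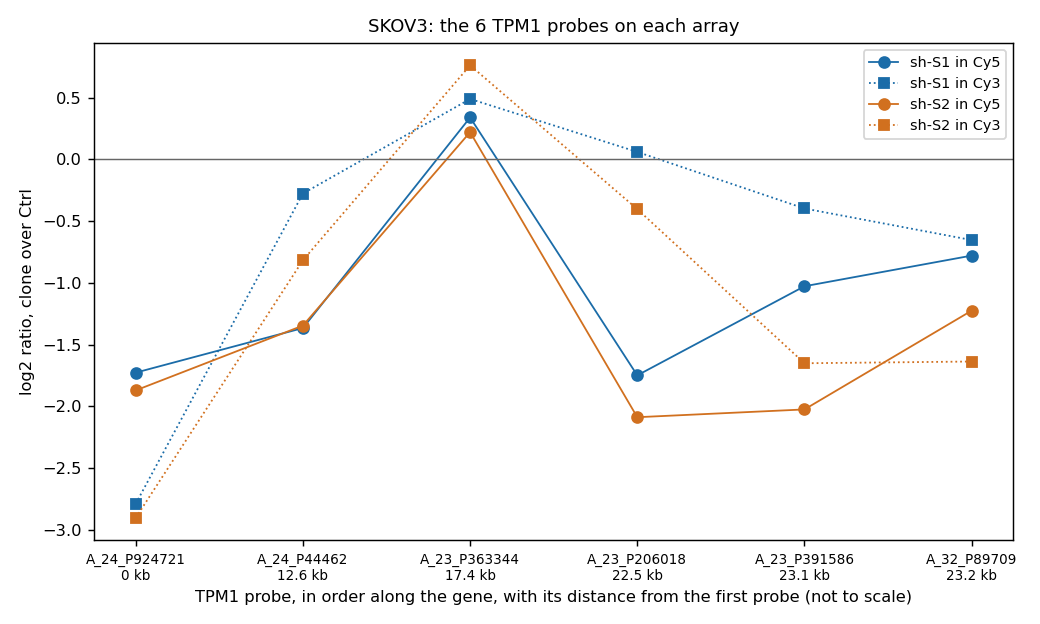
Log2 ratio of the 6 TPM1 probes on each SKOV3 array (vertical axis), placed in their order along the gene with the distance from the first probe in kb below each name, solid lines for the clone in Cy5 and dotted lines for the clone in Cy3. A_23_P363344, 17.4 kb from the first probe, is the only one above 0 on all 4 arrays.

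The channels were also read separately, as log2 levels after normalization between arrays, to show where each RNA stood. Such levels are compared within a probe only, and the same Ctrl RNA varied between arrays. The ACTA2 level of the SKOV3 Ctrl was 11.28 and 11.14 on the arrays of sh-S1 but 9.29 and 9.83 on those of sh-S2. ACTA2 was at 13.88 in sh-S1 on both arrays and at 11.82 and 12.08 in sh-S2. In A2780s it was at 11.78 and 12.57 in the Ctrl and at 11.74 and 12.26 in pCMV-Hic-5. The SKOV3 Ctrl was lowest, and the ranges of sh-S2 and both A2780s RNAs overlap. The level of sh-S1 was highest, but the Ctrl on its arrays was also higher than on those of sh-S2. The mean ratios of sh-S1 and sh-S2 to the Ctrl differed by 0.29, so these levels do not rank sh-S1 against sh-S2 or A2780s.

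For CNN1 the SKOV3 Ctrl was again lowest, at 8.54 to 9.82. The A2780s Ctrl was at 11.69 and 11.71, pCMV-Hic-5 at 11.28 and 11.32, sh-S2 at 12.18 and 12.39 and sh-S1 at 12.73 and 12.94. None of these ranges overlaps another. MYL9 had a mean level of 8.73 in the SKOV3 Ctrl, 11.13 in sh-S1, 10.18 in sh-S2, 10.54 in the A2780s Ctrl and 10.68 in pCMV-Hic-5. The channels of sh-S2, 9.38 and 10.97, overlap those of the SKOV3 Ctrl, 7.97 to 9.46, and of the remaining RNAs, and the channels of each SKOV3 clone differed by dye. The overlap with the Ctrl is between arrays: on its own arrays sh-S2 was at 9.38 against 7.97 and at 10.97 against 8.78. For TPM2 A_23_P216501 the SKOV3 Ctrl, at 14.84 to 15.24, overlapped the A2780s Ctrl at 15.19 to 15.48.

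The genes that fell were highest in the SKOV3 Ctrl. TPM1 A_24_P924721 was at 10.85 to 11.34 there, at 8.06 and 9.58 in sh-S1, at 8.13 and 9.46 in sh-S2, at 8.26 and 8.30 in the A2780s Ctrl and at 8.39 and 8.46 in pCMV-Hic-5. MYLK A_23_P143817 was at 10.92 to 11.50 in the SKOV3 Ctrl, with means of 10.19 in sh-S1, 9.54 in sh-S2, 8.89 in the A2780s Ctrl and 8.52 in pCMV-Hic-5. TPM1 A_23_P363344, the probe that ran the other way, had means of 9.43 in the SKOV3 Ctrl, 9.94 in sh-S1, 9.84 in sh-S2, 11.13 in the A2780s Ctrl and 10.63 in pCMV-Hic-5. No difference between the cell lines was tested.

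**Figure D3:**
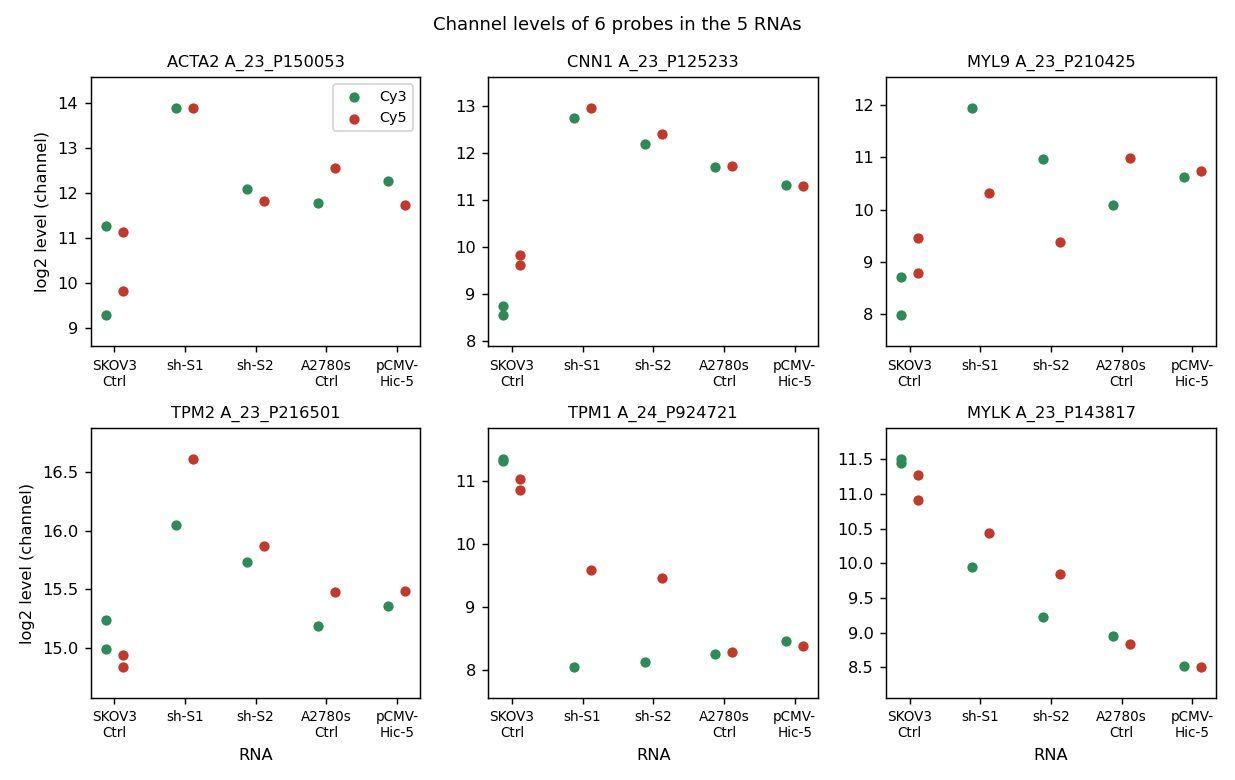
Log2 channel level (vertical axis, a separate scale in each panel) of 6 probes in the 5 RNAs, one point per array channel, green for Cy3 and red for Cy5. CNN1 channels lie between 8.54 and 9.82 in the SKOV3 Ctrl and above 11 in the other RNAs, and TPM1 A_24_P924721 is highest in the SKOV3 Ctrl.

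In A2780s cells, where TGFB1I1 was 3.33 higher on the log2 scale in pCMV-Hic-5, none of the contractile genes reached the 1.5-fold limit. There is 1 clone and no test here, so calls rest on size: a mean of at least 1.5-fold, with the 2 arrays on the same side of 0. Of 20 probes bright enough, covering all 10 genes, 0 were called higher and 0 lower, where 3.26% and 1.32% of all 30530 such probes were. Their mean log2 ratios ran from -0.57 to 0.24, with a median of -0.19 against -0.01 for all probes. The mean was below 0 for 13 and above 0 for 7, and the arrays had the same direction for 14 of the 20.

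The genes that moved most in SKOV3 had small values here. CNN1 gave -0.41 and -0.40, again with the Cy5 orientation first. ACTA2 gave -0.04 and -0.30, and MYL9 gave 0.65 and -0.37, opposite directions in the dye orientations. TPM1 A_24_P924721 gave 0.13 and 0.17. The lowest mean, -0.57, was that of MYLK A_24_P319923, with -0.76 and -0.38, and that mean came to -0.71 on processed signals and to -0.64 with plain subtraction, past the 1.5-fold limit in both. The other MYLK probe gave -0.44 and -0.31. CALD1 A_23_P42575 and A_24_P921366 had means of -0.45 and -0.46, and TPM1 A_23_P363344 -0.50, each with the same sign on both arrays. ACTG2, which was bright enough in this line, gave -0.60 and -0.22. TAGLN, CNN2 and TPM2 had means between -0.04 and 0.24.

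**Figure D4:**
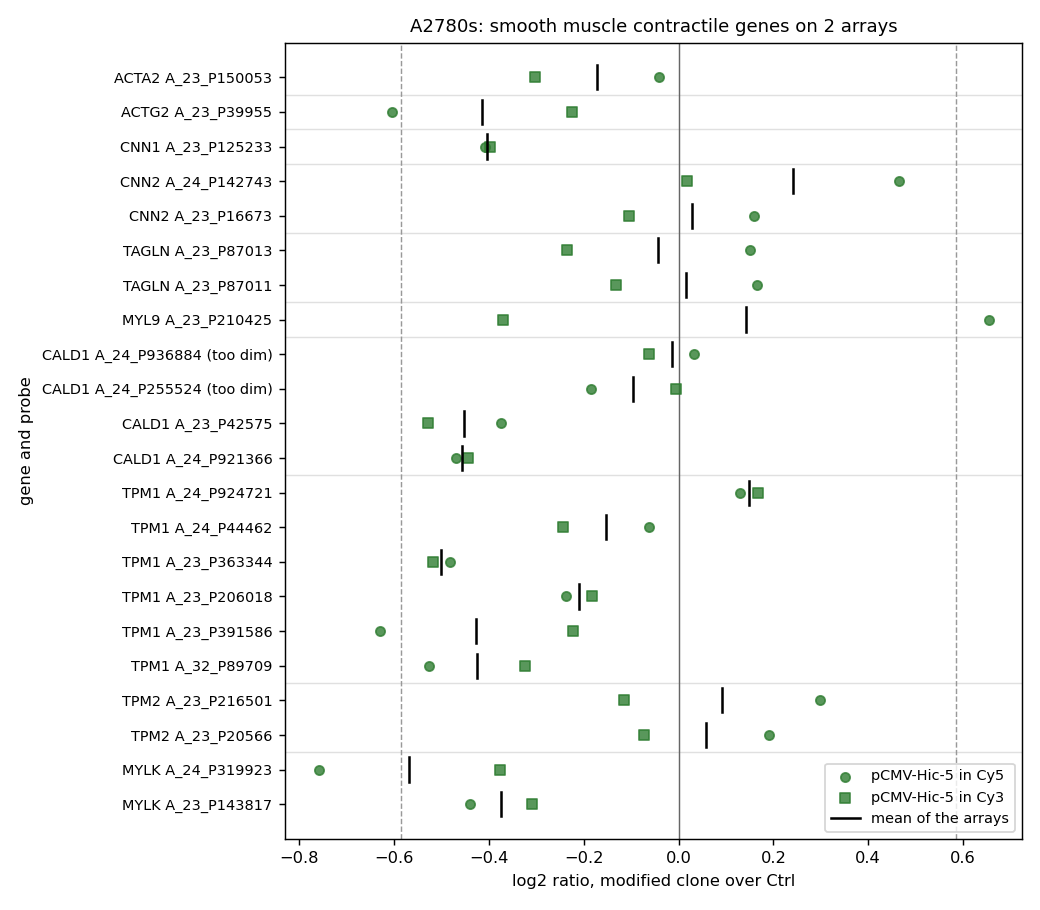
Log2 ratio of each probe of the 10 genes on the 2 A2780s arrays (horizontal axis), circles for pCMV-Hic-5 in Cy5, squares for it in Cy3, a black line at the mean and dashed lines at 1.5-fold. No mean passes a dashed line, and single arrays do for ACTG2, MYL9, TPM1 A_23_P391586 and MYLK A_24_P319923.

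Related genes were read from the same SKOV3 fit in lists, where 2.98% of all tested probes were called higher and 4.16% lower (3.26% and 1.32% in A2780s). Of 15 paralogs of the 10 genes, such as the cytoplasmic actins and non-muscle light chains, 29 probes were tested, 0 were called higher and 2 lower, a number near the background. CNN3, the acidic calponin, gave -2.66, -1.98, -2.85 and -2.35, with a mean of -2.46 ± 0.20 (SD, n = 2 clones; adjusted p = 1.47e-05). CNN3 fell, then, while CNN1 rose and CNN2 remained within 2-fold. TAGLN2, the transgelin of non-muscle cells, fell by 2.06 on the log2 scale on A_23_P74138 (adjusted p = 1.65e-05), while A_32_P194848 was at -0.50. The median of the list was -0.29. In A2780s 1 of 35 paralog probes was called, TPM3 A_23_P310222, lower at -0.65. It is 1 of 11 TPM3 probes, and the means of the others lay between -0.36 and -0.56.

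Among 17 genes that regulate or form the myosin motor, 0 of 28 tested probes were called higher and 3 lower, with a median of -0.24. One of them, MYH9, a non-muscle myosin heavy chain, fell by 1.72 on A_24_P408424 (adjusted p = 9.51e-05), and A_23_P57497 was at -0.42. In A2780s, MYH10 A_24_P256764 was called lower at -0.60, with its other probes at -0.27 and -0.24.

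Of 19 other genes known as SRF targets, 0 of 31 tested probes were called higher and 3 lower, with a median of -0.03. The 3 genes encode actin-associated proteins: PALLD, palladin, at -2.23 ± 0.18, FHL2 at -1.87 ± 0.08 and CSRP1 at -1.21 ± 0.45 (SD, n = 2 clones; adjusted p of 1.98e-05, 2.84e-05 and 0.00148). In A2780s, NEXN A_24_P409971 was called lower at -0.69. Of SRF and its regulators, 10 probes were tested in SKOV3 and 1 was called, ELK4, an SRF partner of the ETS family, lower at -1.45 on A_24_P902091 (adjusted p = 8.74e-05). The 3 SRF probes were at -0.17, 0.24 and 0.52, of which A_24_P346277 passed the adjusted p, 0.00913, and not the fold. MRTFA was at -0.01 and the MRTFB probes at 0.08 and -0.01, with adjusted p of 0.953, 0.617 and 0.948. MYOCD was too dim to test, at -0.13.

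Marker genes of other cell types moved in the same RNAs. Of 13 tested epithelial probes 9 were called lower, covering KRT7, KRT8, KRT18, KRT19, CLDN1 and PAX8, with PAX8 at -3.58 ± 0.07 and KRT7 at -2.20 ± 0.37 (SD, n = 2 clones). The tested probes of CLDN3, MUC1 and MUC16 and another of KRT8 were not called, and the other genes of the list were too dim to test. The mean log2 level over the epithelial list was 9.45 to 9.94 in the SKOV3 Ctrl and 8.18 to 8.80 in sh-S1 and sh-S2. Of 8 tested fibroblast probes 4 were called higher, 3 of COL3A1 at 1.12, 2.34 and 3.65 and 1 of THY1 at 1.45. The other tested fibroblast probes were not called: COL1A1 at -0.14, COL1A2 at 0.16, DCN at 0.07 and PDGFRA at 0.50. The mean level over that list was 7.39 to 7.79 in the Ctrl and 8.00 to 8.48 in the clones. Among the genes of the fibroblast list with 1 probe, FAP and PDGFRB were well above background in the fewest SKOV3 channels, 4 and 2. Of 4 tested smooth muscle probes outside the 10 genes 0 were called, and their list was at 7.32 to 7.45 in the Ctrl and 7.41 to 7.54 in the clones. Genes of the smooth muscle list well above background on all arrays numbered 3 of 7 in sh-S1 and 4 of 7 in sh-S2 and the Ctrl. In both A2780s RNAs they numbered 6 of 7, on arrays where more of all spots were well above background in Cy5 than in SKOV3. The part of these shifts in the ratios of CNN1, ACTA2, MYL9, TPM1 and MYLK was not tested. In A2780s, 3 KRT18 probes were called higher, at 0.59 to 0.76, and PDGFRA lower at -0.83.

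**Figure D5:**
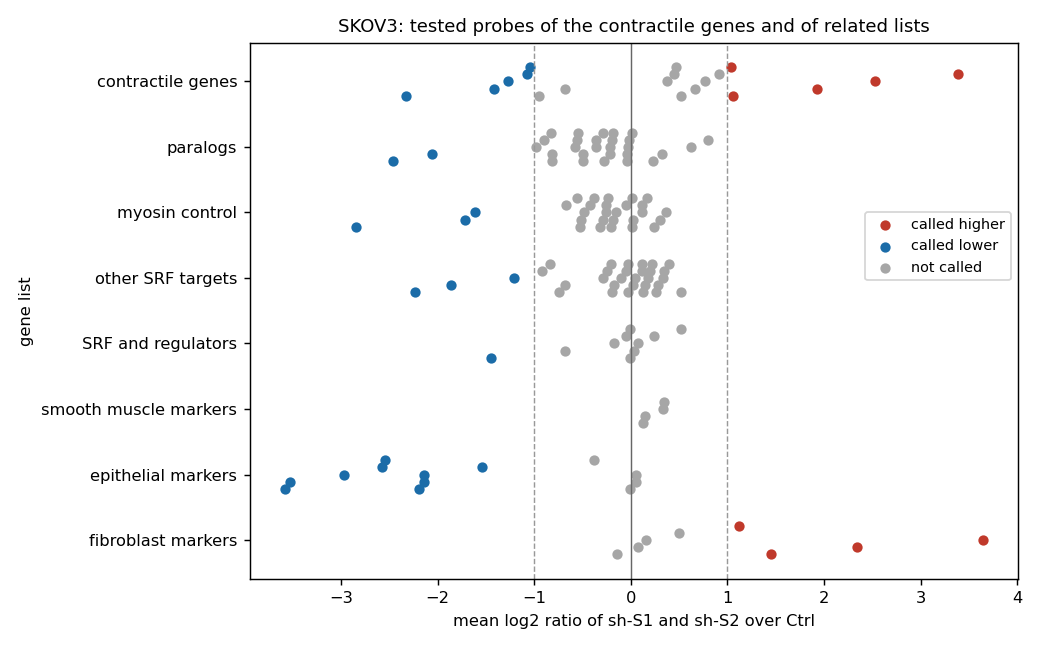
Mean log2 ratio of sh-S1 and sh-S2 over the Ctrl (horizontal axis) for each tested probe of the 10 genes and of related lists, red for probes called higher, blue for lower and grey for neither, with dashed lines at 2-fold; vertical offsets only separate the points. Called probes lie on both sides for the contractile genes, on the lower side for paralogs, myosin control, SRF targets, SRF regulators and epithelial markers, and on the higher side for fibroblast markers.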

How the data were processed

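RNA of the SKOV3 clones sh-S1, sh-S2 and Ctrl and of the A2780s clones pCMV-Hic-5 and Ctrl was compared on 6 Agilent arrays with 45015 spots, 1639 of them controls, and 41000 probes. The authors deposited mean intensity and median background of each spot in both dyes, not normalized, and processed intensities, which the software corrected for background and dye. The log10 ratios the authors deposited set Cy5 over Cy3 on every array, and the deposited series table holds these rounded to 3 significant digits. Feature Extraction is version 8.5.1.1 per the labels and 10.7.3.1 per the file headers. The paper's methods name no background correction, normalization or test for the arrays, only thresholds on p and fold.

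For background, normexp was run in limma 3.58.1 (R 4.3.3, with data.table in version 1.17.8), with 50 as its offset. The normexp parameters were fitted without spots flagged for background, and spots with a background over 1000 were left out. Ratios were normalized by loess within arrays and given the direction of clone over Ctrl, as log2. An offset of this size draws ratios of dim spots toward 0, and the SKOV3 Cy5 channels were dim. Control spots and outlier spots were left out. Probes entered when the Ctrl was well above background on every array of the line, or a clone on both its arrays. In SKOV3, dye-swapped arrays were averaged and the 2 clones tested against 0 with lmFit and eBayes, with Benjamini-Hochberg adjustment over all probes tested. In A2780s no test was possible. Levels per channel were taken after loess and Aquantile normalization.

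All probes of the 10 genes were named, and of related lists the genes called in either line, apart from some of the myosin motor list that are not reported here, besides SRF, MYOCD, MRTFA, MRTFB and TGFB1I1. The members and lists were chosen with earlier results of these data known. Of the 22 probes, 18 matched a RefSeq accession of their gene (GRCh38.p14), and the rest kept the array's name. Probe positions are hg19 as on the array. Exon and UTR positions were not analysed here, nor was cross-hybridization between related genes. Tested on simulated data, the SKOV3 rule found 100 of 100 probes changed by 2 and 100 of 100 changed by 3 on the log2 scale, with 4 false calls among 24956 probes, and the A2780s rule found 100 of 100 each for changes of 1 and 1.5, with 2 false calls among 30530. The simulated SKOV3 arrays held no spread between dye orientations and no deviation of the shared Ctrl RNA. Changes near the limits were not simulated, so these counts do not bear on calls close to 2-fold or 1.5-fold.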

Additional observations from a re-analysis of the deposited data

Results flagged for a closer look

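The 19 probes tested in SKOV3 were all bright enough in A2780s too. For 5 of them, all 4 SKOV3 arrays lay on one side of 0 and both A2780s arrays on the other. The share over all probes tested in both lines was not computed, so this count does not set these genes apart. The SKOV3 clones were labelled as Hic-5 knockdown, and the A2780s clone carries added Hic-5. In each case the difference between the lines was not tested, since A2780s has 1 clone and the lines lie on different slides. The values are the SKOV3 mean minus the A2780s mean of the log2 ratio to the Ctrl. CNN1 A_23_P125233 differed by 3.79 and ACTA2 A_23_P150053 by 2.70. CALD1 A_24_P921366 differed by 1.50 and TPM1 A_23_P363344 by 0.95. TPM1 A_24_P924721 differed by -2.47, in the other direction. TGFB1I1 was not lower in the SKOV3 clones, as its ratios in the report show, so the contrast between the lines is one of labels there.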

How the results depend on the processing

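In SKOV3 the 5 probes called higher and 5 called lower came to 4 to 5 higher and 4 to 7 lower under every alternative that kept both clones and the 2-fold limit. CNN1, ACTA2, MYL9, TPM1 A_24_P924721 and MYLK A_23_P143817 kept their calls in all of these, and CALD1 A_24_P921366, TPM2 A_23_P216501 and TPM1 A_23_P206018 lost theirs in some, as given beside their values. At 1.5-fold, 7 probes were higher and 7 lower (1965 and 2245 of all probes), and with an unadjusted p, 5 and 5 (748 and 1039). With one clone left out, by fold alone and with no test, 3 to 7 were higher and 2 to 6 lower: without sh-S1 3 and 6, without sh-S2 7 and 2. Of these 38 values of single probes, 8 crossed the 2-fold limit. Without sh-S1, CALD1 A_24_P921366 came to 0.90, TPM2 A_23_P216501 to 0.76 and TPM1 A_24_P44462 to -1.08. Without sh-S2, TAGLN A_23_P87013 came to 1.34, TPM2 A_23_P20566 to 1.18, and TPM1 A_23_P206018, A_23_P391586 and A_32_P89709 to -0.84, -0.71 and -0.72. Processed signals called 1971 higher and 2355 lower among all probes, plain subtraction 1648 and 2282, against 743 and 1038. In A2780s the counts of 0 became 1 lower on processed signals and with plain subtraction, where 693 and 480 of all probes were lower against 403, and 1 higher and 3 lower from the Cy5 orientation alone, where 1795 of all probes were higher and 1516 lower against 994 and 403; the cause was not tested. Each ratio pairs a clone with its Ctrl on the same array. A further pairing of replicates across the groups was not possible, because the labels number none. Of the values of single probes under the alternatives that kept both clones, 288 stayed on their side of the limits. In SKOV3, 11 came to pass them, 6 no longer did and 1 changed sign, CALD1 A_23_P42575 at -0.011 from the Cy5 orientation alone. In A2780s, 6 came to pass the 1.5-fold limit. Changes of sign were not counted in A2780s, where the MYL9 mean ran from -0.37 to 0.65 over the settings. Signal over background limits ACTG2, MYOCD and 2 CALD1 probes, which were too dim in SKOV3 to be tested.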
